A study of Mus musculus with 6 samples.

Results

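The 10 genes described here are ligands and receptors of the vascular endothelial growth factor (VEGF) system together with other receptors and proteins typical of blood vessel lining. They are Vegfa, Vegfb, Vegfc and Pgf (ligands), Flt1, Kdr and Flt4 (VEGF receptors), Tek (the angiopoietin receptor), and Egfl7 and Plvap. They were chosen by name, each through the 1 probe set on the array that carries its symbol alone, so that all 10 were measured, among 19938 genes in all. The measurements come from enterospheres, floating cell balls rich in neural progenitors that were raised from gut muscle of C57BL/6 newborns (P0, aged up to 12 hours). The T3 group held 3 samples given triiodothyronine (T3, the active thyroid hormone) at 100 nM for 1 day, reading the labelled unit nm as nM, and the control group held 3 untreated samples. All 6 samples, each from the gut of 3 mice, were first grown with EGF and FGF and then kept in differentiation medium without added growth factors, both before and during the T3 treatment. Total RNA of each sample was hybridised to 1 whole-transcript mouse array, and values are log2 expression values as deposited.

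VEGF ligands bind tyrosine kinase receptors on endothelial cells and drive the growth of vessels. Vegfa acts through Flt1 and Kdr, Vegfb and Pgf bind Flt1, and Vegfc binds Flt4, which is best known from lymphatic vessels. The ligands are made by many cell types, low oxygen raises Vegfa, and neural cells can also carry VEGF receptors. As spheres are cell mixtures, a lower value can come from fewer cells of a type or from less RNA per cell, and these cannot be told apart here.

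Egfl7 and Kdr fell and Plvap rose with T3, and the other 7 genes did not pass the test. Signal of Egfl7 with T3 was 0.614 of that in controls, that of Kdr was 0.750 and that of Plvap 1.34. A gene is said to rise or fall here where limma's adjusted p over all genes was under 0.05. That held for 3 of the 10 genes (1 higher, 2 lower), against 3.1% of all genes (2.28% higher, 0.823% lower). The 10 genes and the lists below were chosen with earlier results of these data known, so such counts are descriptions. The values of the 2 groups of arrays did not overlap for 4 of the 10 genes, namely these 3 and Vegfa, against 19.5% of all genes (11.9% higher, 7.55% lower). The median log2 change of the 10 genes was 0.06, and that of all genes was 0.0088. Leaving out 1 array at a time left 1 to 3 of the 10 called, with Egfl7 called in all 6 such fits. Of 5 genes checked for a thyroid hormone response in the same arrays, 3 rose, with log2 changes of 1.92 ± 0.07 for Hr, 1.86 ± 0.08 for Klf9 and 1.30 ± 0.08 for Thrb (SE). The other 2 did not pass, at 0.54 for Dio3 (adjusted p = 0.120) and -0.09 for Thra (adjusted p = 0.652), though the groups did not overlap for either gene. Dio3 was called higher with a replicate block, with array quality weights and without control replicate 3.

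**Figure D1:**
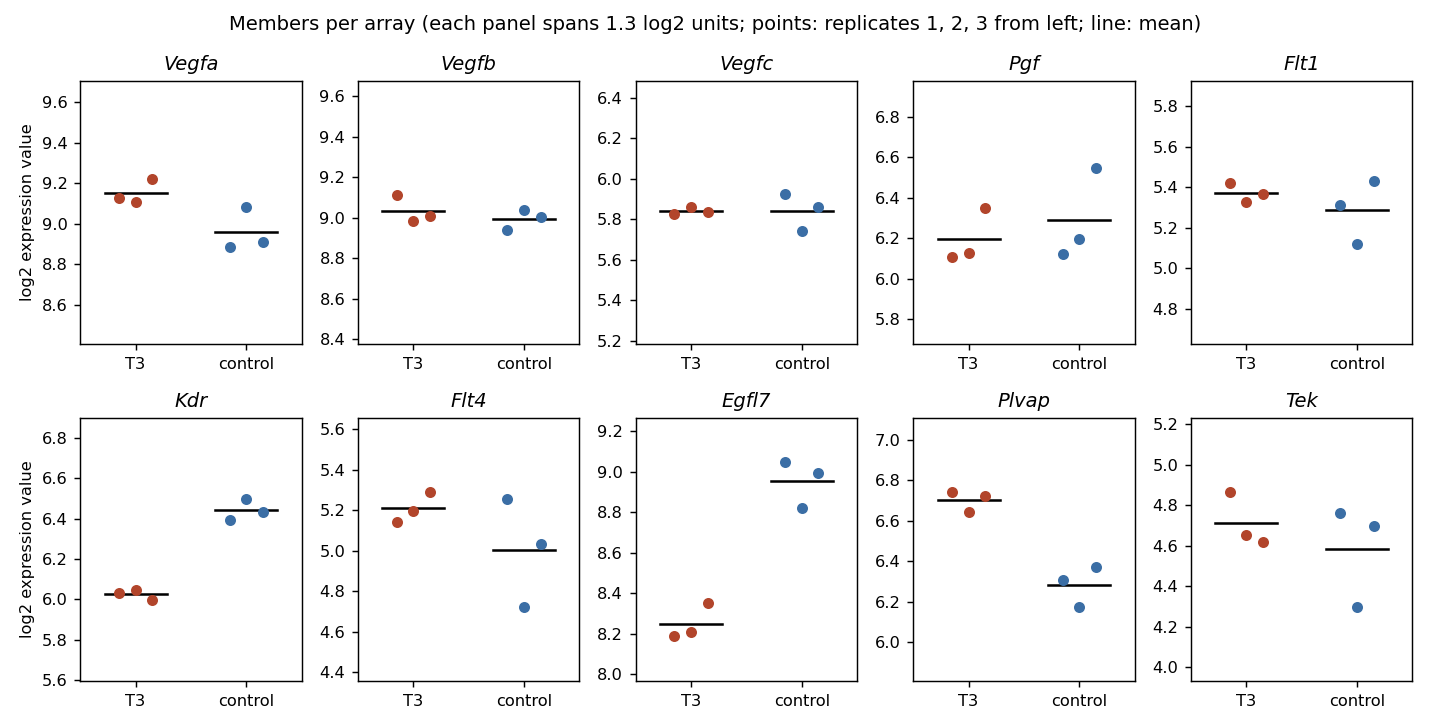
Log2 expression value (vertical axis) of the 10 genes in each array, T3 arrays on the left of each panel and control arrays on the right, with lines at the group means of 3 arrays and every panel drawn over the same span. The T3 arrays lie below all control arrays for Kdr and Egfl7 and above all of them for Plvap and Vegfa, and the groups overlap in the other 6 panels.

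In controls, Vegfb, Vegfa and Egfl7 were bright for this array, with 78.6%, 78.1% and 78.0% of genes at or below their control mean. The other 7 lay below the median gene, from Kdr (44.0%) through Plvap and Pgf, which nearly tied, and then Vegfc (36.5%), Flt1 (28.3%) and Flt4 (23.9%) to Tek (17.5%). Brightness depends on the probes as well as on RNA, so it does not rank the genes by amount. With T3 the mean log2 values of the 10 genes, averaged per array, were 6.62 to 6.68, against 6.57 to 6.73 in controls.

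The ligands showed no change that passed the test. Vegfa, the main growth factor of vessels, had values of 9.13, 9.11 and 9.22 with T3, against 8.89, 9.08 and 8.91 in controls. All 3 T3 values lay above the control values, with a gap of 0.0245 between the highest control and the lowest T3 array. The log2 change of 0.19 ± 0.08 (SE) had an unadjusted p = 0.0395 and an adjusted p = 0.324 (limma). Its adjusted p was 0.0153 with array quality weights and at least 0.152 in the other alternative fits.

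Vegfb, a ligand of Flt1, had values of 9.11, 8.99 and 9.01 with T3, against 8.94, 9.04 and 9.004 in controls. Its groups overlapped and the change was 0.04 (95% confidence interval -0.12 to 0.20). Vegfc, the ligand of Flt4, had values of 5.83, 5.86 and 5.84 with T3, against 5.93, 5.74 and 5.86 in controls. The 3 T3 values lay within the range of the controls, with a change of -0.0016 (interval -0.17 to 0.17). Pgf, placental growth factor, had values of 6.11, 6.13 and 6.35 with T3, against 6.12, 6.20 and 6.54 in controls, and its replicate 3 was the highest in both groups. Its change was -0.09 (interval -0.37 to 0.19). Adjusted p was 0.862 or more for these 3 genes.

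Among the receptors, Kdr fell. It encodes VEGF receptor 2, through which Vegfa drives endothelial growth and permeability. Kdr had values of 6.03, 6.05 and 6.00 with T3, against 6.39, 6.50 and 6.43 in controls. The T3 arrays lay within 0.05 of each other and at least 0.34 below every control array. The log2 change was -0.41 ± 0.07 (SE; interval -0.57 to -0.26; adjusted p = 0.0152). Over the fits without 1 array the change stayed between -0.44 and -0.38, while adjusted p ranged from 0.0336 to 0.0776 and missed the threshold when T3 replicate 2 or 3, or control replicate 1, was left out.

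Flt1, VEGF receptor 1, which also exists as a soluble decoy, had values of 5.42, 5.33 and 5.37 with T3, against 5.31, 5.12 and 5.43 in controls. The control values enclosed those of the T3 arrays, and the change was 0.08 (interval -0.12 to 0.29). Flt4, the receptor of Vegfc, had values of 5.14, 5.20 and 5.29 with T3, against 5.26, 4.72 and 5.03 in controls. Its change was 0.21 (interval -0.08 to 0.49), with control replicate 2 far below the other arrays. Tek, the receptor of the angiopoietins, had values of 4.87, 4.65 and 4.62 with T3, against 4.76, 4.30 and 4.70 in controls. Its change was 0.13 (interval -0.17 to 0.42), and the same control array was lowest. Adjusted p was 0.582 or more for these 3 receptors. Whether the change of Kdr differed from that of the other receptors was not tested.

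Control replicate 2 gave the lowest of the 6 values for 5 of the 10 genes (Vegfc, Flt1, Flt4, Plvap and Tek), all of them dim, and for 10 of 26 endothelial marker genes. Its lower quartile over all genes, 4.98, was also the lowest of the 6 arrays (4.98 to 5.16). Its upper quartile, 8.80, was the highest of them (8.71 to 8.80), so its values were spread wider and not lower throughout. Without that array the changes of Flt1, Flt4 and Tek were close to 0, at 0.00076, 0.06 and -0.02. How far the array-wide spread of values accounts for these control values was not tested.

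**Figure D2:**
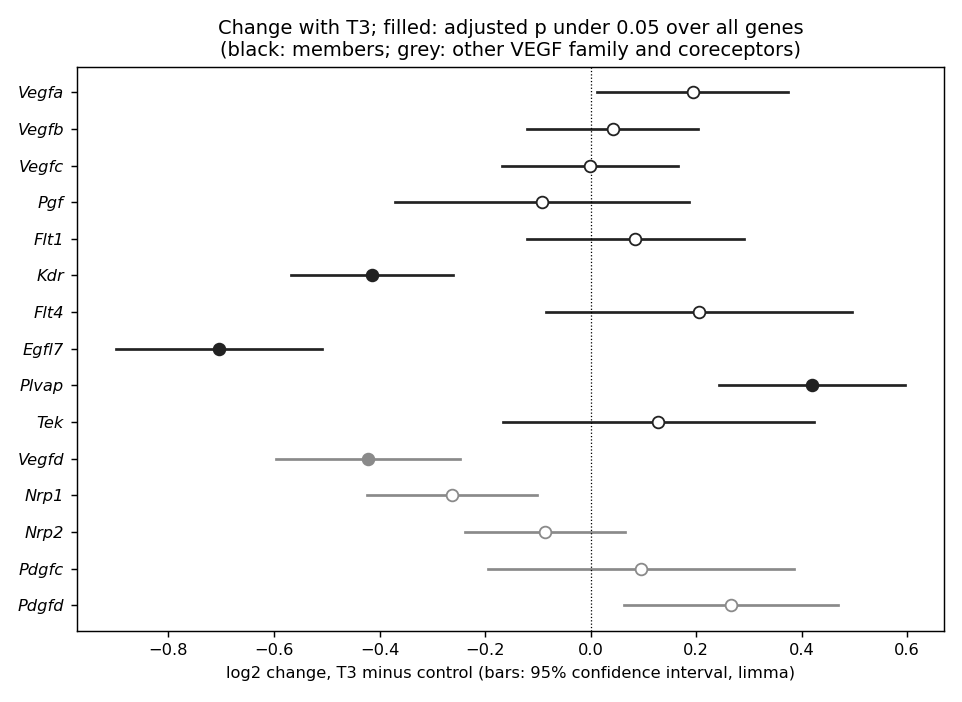
Log2 change, T3 minus control (horizontal axis), with its 95% confidence interval from limma for the 10 genes (black) and for 5 other genes of the VEGF family and its coreceptors (grey), filled where the adjusted p was under 0.05. Egfl7 at -0.70, Vegfd at -0.42 and Kdr at -0.41 lie left of 0 and Plvap at 0.42 right of it; 6 of the 10 black intervals include 0.

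Egfl7 showed the largest difference of the 10 genes. It encodes a secreted matrix protein of endothelial cells that guides the forming of vessel tubes, and is also made by neural stem cells of the mouse brain. Egfl7 had values of 8.19, 8.21 and 8.35 with T3, against 9.05, 8.82 and 8.99 in controls. Every T3 array lay at least 0.47 below the lowest control array. The log2 change was -0.70 ± 0.09 (SE; interval -0.90 to -0.51), with adjusted p = 0.00495. Adjusted p was at most 0.0318 in every alternative fit run, including those without 1 array.

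An intron of Egfl7 holds the gene of miR-126, a microRNA of endothelial cells whose seed, bases 2 to 8 of the mature strand, is in capitals in this RefSeq sequence (GRCm38.p6, chr2:26591402-26591423, plus strand).
mmu-miR-126a-3p: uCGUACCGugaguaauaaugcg
The probe set of Mir126a read 3.20, 3.11 and 3.17 with T3, against 2.97, 2.93 and 3.04 in controls. These are among the dimmest values of the array, with 0.737% of genes at or below its control mean. The change of 0.18 ± 0.07 (SE) did not pass (adjusted p = 0.293). The array probes the gene and not the processed mature strand, so the level of the microRNA is not known.

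Plvap rose. It encodes the protein that forms the diaphragms of endothelial fenestrae and caveolae. Plvap had values of 6.75, 6.64 and 6.72 with T3, against 6.31, 6.17 and 6.37 in controls. All T3 arrays were above all control arrays, by at least 0.27. The log2 change was 0.42 ± 0.08 (SE; interval 0.24 to 0.60; adjusted p = 0.0261). The gene lost its call when any single T3 array or control replicate 1 was left out (adjusted p up to 0.114), and after centring arrays on the median or 75th percentile of the genes (0.0518 and 0.0633).

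The start regions of the genes that fell are shown with that of Vegfb, which did not pass, because they hold the short motifs searched for. Of the 10 genes, 9 have windows in the RefSeq promoter table (GRCm38.p6, 250 bases before to 50 after a start), 13 windows in all. The motifs were AGGTCA, the half-site of thyroid hormone receptors, GGAAGT, an ETS-type motif found in many endothelial promoters, and ACGTG, the core of hypoxia response elements, each on both strands. Capitals below mark the first and second of these, which overlapped in 0 of the 13 windows.
Kdr (chr5:75978406-75978705, minus strand): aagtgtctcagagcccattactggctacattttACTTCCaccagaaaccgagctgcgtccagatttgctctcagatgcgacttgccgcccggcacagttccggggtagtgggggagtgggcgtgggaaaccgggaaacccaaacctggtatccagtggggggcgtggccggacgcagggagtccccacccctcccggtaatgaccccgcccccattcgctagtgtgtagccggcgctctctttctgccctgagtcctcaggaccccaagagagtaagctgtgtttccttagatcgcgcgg
Egfl7 first start (chr2:26580833-26581132, plus strand): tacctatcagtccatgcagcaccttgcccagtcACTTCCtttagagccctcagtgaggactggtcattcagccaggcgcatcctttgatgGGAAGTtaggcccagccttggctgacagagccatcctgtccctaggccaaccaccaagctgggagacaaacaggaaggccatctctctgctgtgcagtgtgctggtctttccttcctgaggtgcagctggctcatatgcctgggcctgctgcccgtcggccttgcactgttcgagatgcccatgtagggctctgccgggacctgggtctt
Egfl7 second start (chr2:26583615-26583914, plus strand): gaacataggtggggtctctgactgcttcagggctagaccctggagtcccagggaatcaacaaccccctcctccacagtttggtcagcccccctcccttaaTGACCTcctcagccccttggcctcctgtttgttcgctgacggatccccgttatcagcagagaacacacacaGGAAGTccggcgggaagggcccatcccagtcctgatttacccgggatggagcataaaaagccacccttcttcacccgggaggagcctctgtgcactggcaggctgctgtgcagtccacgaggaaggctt
Vegfb (chr19:6987602-6987901, minus strand): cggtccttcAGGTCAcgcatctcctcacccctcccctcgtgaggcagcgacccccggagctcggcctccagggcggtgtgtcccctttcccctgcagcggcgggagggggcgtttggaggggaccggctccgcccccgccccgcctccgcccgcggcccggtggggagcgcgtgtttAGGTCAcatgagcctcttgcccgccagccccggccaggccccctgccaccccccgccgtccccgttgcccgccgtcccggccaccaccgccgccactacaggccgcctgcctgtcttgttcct
GGAAGT stood in 5 of the 13 windows, and 23.8% of all 32851 windows in the table hold it. It stood once in the Kdr window, in both Egfl7 windows shown, in that of Flt1 and in 1 of Vegfa, and not in the third Egfl7 window. AGGTCA stood in 2 of the 13 windows, against 16.3% of all windows: once at the second Egfl7 start and at 2 places in the Vegfb window. A direct repeat, AGGTCA then NNNN then AGGTCA, stood in none of the 13 and in 0.0152% of all windows. ACGTG stood in 1 of the 13, a Vegfa window, against 19.6% of all windows. A match describes these letters only.

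Of the other VEGF family genes and coreceptors (5 genes), 1 fell, against 0.823% of all genes, and none rose. Vegfd, a ligand of Flt4 in the mouse, had values of 5.79, 5.95 and 5.99 with T3, against 6.36, 6.30 and 6.33 in controls. Its groups were separate and the log2 change was -0.42 ± 0.08 (SE, adjusted p = 0.0249). The call was lost in each fit without 1 array except that without control replicate 2 (adjusted p up to 0.128). Nrp1, the neuropilin that helps Vegfa bind Kdr and also serves axon guidance, had values of 9.75, 9.78 and 9.85 with T3, against 9.98, 10.10 and 10.08 in controls. Its groups did not overlap, but its change of -0.26 ± 0.07 (SE) did not pass (adjusted p = 0.104). Nrp1 was called lower without the dimmest 50% of genes, with trend and robust fitting and with array quality weights. Pdgfd, of the related platelet-derived growth factors, had a change of 0.27 (adjusted p = 0.196) and was called higher with array quality weights.

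Of 7 measured angiopoietin-related genes, 1 rose, against 2.28% of all genes. This was Angptl4, an inhibitor of lipoprotein lipase named for its likeness to angiopoietins, which had values of 9.93, 9.42 and 9.29 with T3, against 8.17, 8.73 and 8.04 in controls. Its groups were separate, with a log2 change of 1.23 ± 0.21 (SE, adjusted p = 0.0183). The call was lost without T3 replicate 1 or 2 or control replicate 1 or 3 (adjusted p up to 0.0930). Angpt1, which activates Tek, had a change of 0.19 (adjusted p = 0.683), and Angptl1 one of 0.33 (adjusted p = 0.238).

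Of 22 measured genes of signalling below the VEGF receptors, none passed. At an unadjusted p under 0.05 there were 8 of the 22, against 13.7% of all genes, and the median change was -0.05. The smallest p-values were those of Map2k1, Prkcb and Nfatc1. Map2k1, a kinase of the MAP kinase cascade, had a change of -0.30 (adjusted p = 0.0678). Prkcb, a protein kinase C gene, had one of -0.29 (adjusted p = 0.117), and the calcium-regulated factor gene Nfatc1 one of -0.25 (adjusted p = 0.130). Among the alternative fits, Map2k1 was called lower without the dimmest 25% or 50% of genes and with trend and robust fitting. With array quality weights 2 of the 22 were called higher and 3 lower, Map2k1 among them, where 3548 of all 19938 genes were called.

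Of 16 measured genes that VEGF induces early in endothelial cells, 6 fell and none rose, against 0.823% of all genes that fell, and the median change was -0.26. The list was chosen with earlier results of these data known, so this count only describes it. The 6 were Nr4a3, Egr2, Spry4, Klf4, Adamts1 and Dusp5. Many of these are general early-response genes that other growth factors also induce. Nr4a3, a nuclear receptor gene, had values of 6.80, 6.56 and 6.62 with T3, against 7.31, 7.44 and 7.44 in controls, a log2 change of -0.73 ± 0.09 (SE, adjusted p = 0.00409). Egr2, a zinc finger factor, had values of 8.37, 8.67 and 8.73 with T3, against 9.15, 9.23 and 9.30 in controls, a change of -0.64 ± 0.10 (SE, adjusted p = 0.0144). Spry4, a feedback inhibitor of receptor tyrosine kinases, had 10.06, 10.00 and 10.06 with T3, against 10.37, 10.50 and 10.50 in controls, a change of -0.41 ± 0.07 (SE, adjusted p = 0.0191). In these 3 genes every T3 array was below every control array. The number called fell to 1 (Nr4a3) without control replicate 1, and was 2 to 5 without another array. Nr4a3 was called in all 6 such fits.

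Low oxygen is the classic inducer of Vegfa. Of 18 measured genes of low oxygen and its transcription factors, 4 rose and none fell, against 2.28% of all genes that rose, with a list median of 0.08. This list, too, was chosen with earlier results known, and its count is a description. Adm, the vasodilator peptide adrenomedullin, had values of 5.99, 5.78 and 5.86 with T3, against 5.46, 5.28 and 5.37 in controls, a log2 change of 0.51 ± 0.08 (SE, adjusted p = 0.0167). Egln3, an oxygen-sensing prolyl hydroxylase, changed by 0.48 ± 0.08 (SE) and Higd1a, a mitochondrial protein gene, by 0.53 ± 0.10 (SE). The fourth was P4ha2, a collagen prolyl hydroxylase subunit, at 0.45. Other genes of the list were picked after their values were seen. Slc2a1, Pgk1 and Ldha had changes of -0.10, 0.10 and -0.04 (adjusted p of at least 0.703). Epas1, a HIF factor gene, had a change of 0.38 (adjusted p = 0.0957) and Ndrg1 one of -0.20 (adjusted p = 0.255), both with separate groups. Epas1 was called with array quality weights and without the dimmest 50% of genes. Any part of low oxygen was not tested. The number of calls on the list was 0 without T3 replicate 3 or without control replicate 1, and 1 to 3 without another array.

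**Figure D3:**
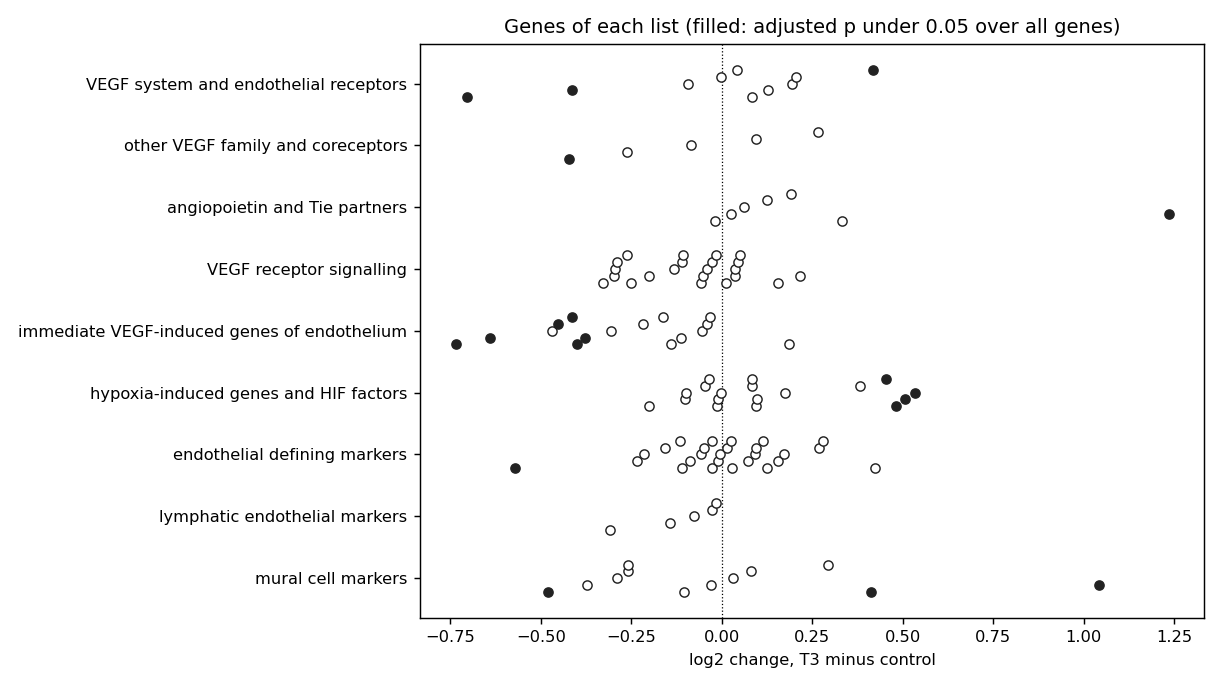
Log2 change, T3 minus control (horizontal axis), of each measured gene of 9 lists, 1 point per gene, filled where the adjusted p over all genes was under 0.05; vertical offsets within a list only separate the points. The 6 filled points of the early VEGF-induced list all lie left of 0 and the 4 of the hypoxia list right of it, while 25 of 26 endothelial markers are open.

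Endothelial cells were checked through 26 defining marker genes, all measured. Most were dim: 21 lay below the median gene in controls. The array gives no detection calls and no value of 0, so it is not known how much endothelial RNA the spheres held. The other 5 were Eng and Cd34, which mesenchymal cells also carry, S1pr1, Clec14a and Ecscr. With all 6 arrays at equal weight, Clec14a, an endothelial C-type lectin, fell and no marker rose, against 0.823% and 2.28% of all genes. The other 25 did not pass (median change 0.0046). The next smallest p-values were those of Cd34 at 0.28 (adjusted p = 0.156) and She at -0.23 (adjusted p = 0.254), each with separate groups. With array quality weights 4 markers were called higher and 2 lower, where 3548 of all 19938 genes were called. Clec14a had values of 7.46, 7.06 and 7.02 with T3, against 7.65, 7.84 and 7.77 in controls. Its groups were separate, with a change of -0.57 ± 0.12 (SE, adjusted p = 0.0430), and the call held in 1 of the 6 fits without 1 array, that without T3 replicate 1 (adjusted p up to 0.160). The summed signal of the 26 genes on the linear scale was 3552 to 4028 in T3 arrays and 3499 to 4138 in controls.

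Several endothelial markers, picked after their values were seen, varied far more among the T3 arrays than Kdr, Egfl7 or Plvap did. Others did not: Cd34 spanned 0.07 and She 0.09 over the T3 arrays. T3 replicate 1 was the lowest of the 6 arrays for 7 of the 26 markers. Cdh5, the cadherin of endothelial junctions, had values of 6.24, 7.21 and 6.80 with T3, against 6.26, 6.34 and 6.39 in controls. Its T3 values thus spanned 0.97, compared with 0.05 for Kdr, 0.16 for Egfl7 and 0.10 for Plvap. Cd93 spanned 1.11 and S1pr1, a lipid receptor, 1.14 over the T3 arrays, each lowest in T3 replicate 1. Pecam1, the platelet and endothelial adhesion molecule, had 5.69, 6.08 and 6.20 with T3, against 5.72, 5.66 and 5.79 in controls. Over all 6 arrays the changes were 0.42 for Cdh5 (adjusted p = 0.429) and 0.27 for Pecam1 (adjusted p = 0.411). Without T3 replicate 1 Cdh5 was called higher, at 0.68 (adjusted p = 0.0492). Pecam1 at 0.42 (adjusted p = 0.0571), S1pr1 at 0.32 and Cd93 at 0.24 did not pass there. The part of endothelial cell number in the changes of Kdr, Egfl7 and Plvap was not tested.

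**Figure D4:**
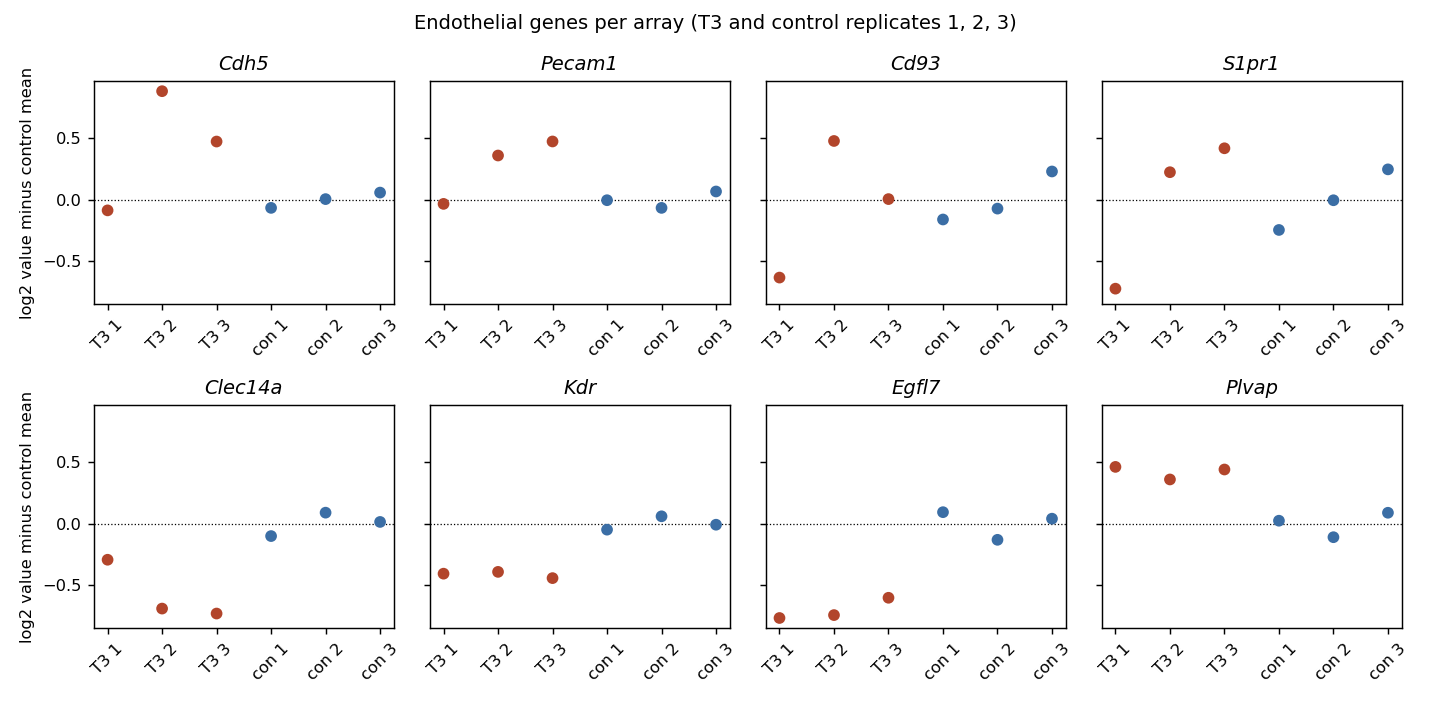
Log2 value minus the mean of the 3 control arrays (vertical axis) for 5 endothelial markers and for Kdr, Egfl7 and Plvap in each array, T3 replicates 1 to 3 (red) on the left and control replicates 1 to 3 (con, blue) on the right. Cdh5, Pecam1, Cd93 and S1pr1, picked after their values were seen, are each lower in T3 replicate 1 than in T3 replicates 2 and 3. Kdr, Egfl7 and Plvap vary little within the T3 group, as do some endothelial markers not drawn, such as Cd34 (span 0.07).

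Of 5 measured lymphatic endothelial markers, none rose or fell, and 1 had an unadjusted p under 0.05, as did 13.7% of all genes. Reln, also a gene of neurons, had a change of -0.31 (adjusted p = 0.148), Pdpn one of -0.14 and Prox1, the lymphatic master factor, one of -0.08. Among 14 markers of macrophages, cells in which Flt1 can also be active, none passed in limma and none reached an unadjusted p under 0.05. Their median change was 0.04. All 14 lay below the median gene in controls and 8 below the 25th percentile, which limits what they can show.

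The genes most like each called gene over the 6 arrays, by Pearson correlation, were as follows. For Kdr they were Dlc1, Mical2 and Adgrl2 (r = 0.997, 0.996 and 0.995). For Egfl7 they were Tafa5, St8sia2 and Efhd1 (r = 0.997, 0.996 and 0.994). For Plvap they were Dnaaf5, Acsbg1 and Myo18a (r = 0.994, 0.991 and 0.990). The 6 arrays share 2 groups, and 111 to 147 genes had r over 0.95 with each of the 3, so these orders are descriptions only.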

How the data were processed

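Total RNA of 6 enterosphere samples was measured on Affymetrix mouse gene arrays, 1 per sample. The authors deposited log2 expression values for 35556 probe sets, made with RMA and Partek 6.5 per the submitters' processing notes; the settings are not stated, and the build is not given in the sources used here. Between-array normalization removes changes common to most genes, background compresses differences of dim genes, and the values carry no detection calls or depth, so the number of arrays limits the precision. Values of different probe sets were not compared as amounts.

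Probe sets with 1 symbol in the platform annotation (21789) were kept, 1 per gene by highest mean, giving 19938 genes; 1621 with several symbols and 12146 not listed were left out. T3 minus control was tested with limma 3.58.1 (R 4.3.3; lmFit, eBayes), two-sided, Benjamini-Hochberg adjusted over all genes, called under 0.05. Every adjusted p and SE is limma's. The SE uses a spread pooled over both groups of 3 arrays and moderated by the spread of all genes. The labels do not say that samples of a group came from separate cultures beyond 3 mice each, so the p-values reflect only spread among these samples, which may be technical.

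Named were the 10 genes, up to 3 genes of smallest p per list, Hr, Klf9 and Thrb, and the 3 genes most correlated with each called gene. Others were named after their values were seen: Klf4, Adamts1, Dusp5, P4ha2, Slc2a1, Pgk1, Ldha, Epas1, Ndrg1, Cdh5, Pecam1, Cd93, S1pr1, Eng, Ecscr, Pdgfrb, Mcam, Notch3, Snap25, Dio3 and Thra. The genes and lists were chosen with earlier results of these data known. Tested on simulated data with 19938 genes and 200 changed, the procedure recovered 51.4% of log2 changes of 0.5 and 91.4% of changes of 1, with 3.92% false calls.

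Same-numbered arrays were not paired by the labels. No 2 arrays were duplicates: the SD of the difference over genes was 0.137 to 0.243 within groups and 0.223 to 0.267 between them. Alternatives were a replicate block, 5 other scalings, filters on dim genes, other uses of probe sets, trend and robust fitting, array weights, a threshold of 0.1 and leaving out each array. Sequences are RefSeq's (GRCm38.p6).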

Additional observations from a re-analysis of the deposited data

How the results depend on the processing

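Egfl7 kept its direction and its call in every alternative run. Kdr and Plvap kept their directions in all of them, and lost calls only as given above and, for Plvap, after centring on the 75th percentile of all probe sets (adjusted p = 0.0589). The number of the 10 genes called was 1 without the dimmest 50% of genes, where only 3 of the 10 were tested, and 1 to 3 when 1 array was left out. Over all genes 618 were called; the count was 3548 with array quality weights, 962 at an adjusted p under 0.1 and 191 to 640 without 1 array. Of the calls 73.5% were higher, against 80.6% without control replicate 2, 81.5% after centring on the median of all probe sets, and 65.5% and 65.7% after centring on the median and 75th percentile of the genes. The 2 centrings on all probe sets were added after seeing the data. Uncalled changes near 0 turned sign: Vegfc to 0.0314 after a renewed quantile normalization and 0.0282 after centring on the median of all probe sets (-0.0528 to 0.0401 without 1 array), Pgf to 0.0597 and Tek to -0.0648 with array quality weights (without 1 array, -0.17 to 0.0367 for Pgf and -0.0155 to 0.22 for Tek). With a replicate block 472 genes and the same 3 of the 10 were called (adjusted p = 0.0409 for Kdr, 0.0109 for Egfl7 and 0.0408 for Plvap), while 9 other named calls were lost: Vegfd (0.0561), Dusp5 (0.0566), Adamts1 (0.0622), Higd1a (0.0724), Clec14a (0.0756), Abcc9 (0.0599), Snap25 (0.0849), Nos1 (0.0532) and Twist1 (0.0632). The early VEGF-induced count was then 4. Deviations of same-numbered arrays from their group means correlated at 0.179, 0.0171 and 0.00017. The first was the highest of any T3 and control array, but not every array correlated best with its own number. With 3 arrays per group these correlations cannot decide whether same-numbered samples shared a culture or batch, and the labels do not say. The causes of these shifts were not tested. Dim probe sets such as those of Tek, Flt4 and Flt1 limit what the arrays can show.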

Other observations

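Markers of mural cells, the pericytes and smooth muscle cells that wrap vessels, moved both ways. Of 12 measured, 2 rose and 1 fell, against 2.28% and 0.823% of all genes. Groups did not overlap for 2 genes higher and 4 lower with T3, against 11.9% and 7.55% of all genes. These included Pdgfrb at -0.26, Mcam at -0.29 and Notch3 at -0.37, which did not pass (limma adjusted p = 0.0977, 0.104 and 0.201). Kcnj8 and Abcc9, the pore and regulatory subunits of the vascular type of ATP-sensitive potassium channel, were both higher. Kcnj8 had values of 9.34, 9.14 and 9.01 with T3, against 7.99, 8.19 and 8.18 in controls (log2 change 1.04 ± 0.10, SE, adjusted p = 0.00186). Abcc9 had 8.67, 8.74 and 8.68 with T3, against 8.28, 8.18 and 8.38 in controls (0.41 ± 0.08, SE, adjusted p = 0.0252), a call lost in each fit without 1 array except that without control replicate 3. Cspg4, the NG2 proteoglycan of pericytes and glial precursors, fell, with 8.32, 8.34 and 8.30 with T3, against 8.77, 8.82 and 8.82 in controls (-0.48 ± 0.06, SE, adjusted p = 0.00709). Kcnj8 and Cspg4 were called without any 1 array.

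Among markers of the neural and mesenchymal cells of the spheres, 4 of 12 neuron genes rose, against 2.28% of all genes, and none fell. Those of smallest p were Prph at 0.94, Dbh at 0.91 and Nos1 at 0.50. Only Prph was called in all 6 fits without 1 array; the count was 1 without T3 replicate 2 or 3, 2 or 3 without another array, and 2 with a replicate block, as Nos1 was lost in 5 of the 6 fits and Snap25 in all 6. None of 10 measured progenitor and glia genes passed in limma, with 2 of the 10 at an unadjusted p under 0.05, against 13.7% of all genes. These were Ret at 0.26 and Sox2 at -0.23, and the next was Gfap at -0.20. Of 10 fibroblast and mesenchyme genes, Thy1 rose by 1.24 and Twist1 fell by 0.49 on the log2 scale. Over all genes 2.28% rose and 0.823% fell. Thy1 was called in all 6 fits without 1 array, and Twist1 only in that without control replicate 1 (adjusted p up to 0.117). Fbln2 had a change of 0.39 (adjusted p = 0.153).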
